A study of Mus musculus with 3 samples.

Results

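This account concerned 75 genes of motile cilia and of the sperm flagellum in nuclei of mouse epididymal fat, out of 29625 genes in the tables. The members were every gene whose symbol joins Dnah, Cfap, Tekt or Drc with a number, every gene whose symbol begins with Dnaic or Rsph, and Spag16, Spag17, Spag6, Ccdc39, Ccdc40, Foxj1, Hydin and Tmem212; the rule reads gene symbols only. Single-nucleus RNA was sequenced on the 10x platform from 3 stages of diet-induced obesity in male C57BL/6J mice bought at an age of 5 weeks. The Ctrl group ate a full diet, in the words of the label, and the Mid_Ob and Ob groups ate a high-fat diet and were taken during the development of obesity and once it was established. Both were assigned by how far body weight exceeded the Ctrl mean. No gene was altered in any group, and the length of feeding at each stage is not given in the sources used here. The fat of 8 mice was pooled into 1 library per stage, so there was no replicate, no test was possible, and every difference is one between 3 libraries. All intervals below cover counting error at 95% only.

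A motile cilium and a sperm tail are built on the same axoneme. Outer and inner dynein arms, each made of heavy chains, intermediate chains and light chains, slide the microtubule doublets past each other. Radial spokes carry signals from the central apparatus to the arms, the dynein regulatory complex links neighbouring doublets, Ccdc39 and Ccdc40 form the ruler that sets the repeat along the doublet, and tektins lie inside the doublet wall. Foxj1 is the forkhead factor that turns on this program in multiciliated cells. In the male tract, multiciliated cells line the efferent ducts between testis and epididymis, and developing sperm build their flagellum in the testis, whereas adipocytes, macrophages and endothelial cells are not known to carry motile cilia.

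Unique molecular identifiers (UMIs, molecules counted once) numbered 53980929 for the Ctrl library, 57665213 for Mid_Ob and 111595518 for Ob, split by the authors into 14, 11 and 21 clusters. Clusters were named here from fixed marker genes outside the membership, as "X-like". Ctrl held 4 germ cell-like clusters with 26.3% of its UMIs, a testis somatic-like cluster with 15.4% and a cluster 8 with 5.32% that carried epididymal and ciliated markers side by side and is called by its number, so the tissue labelled as fat carried RNA of the testis and its ducts. Mid_Ob held 2 epididymal epithelium-like clusters with 30.3% of its UMIs. The share of adipocyte-like clusters was 25.2% for Ctrl, 46.9% for Mid_Ob and 55.4% for Ob. Cluster 11 of Mid_Ob and cluster 17 of Ob were ciliated epithelium-like. Each result below is read beside this make-up, since fewer cells of a type and less RNA per cell cannot be told apart.

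Summed over members, Ctrl had 496425 UMIs, Mid_Ob had 73984 and Ob had 60870. As a share of all UMIs, Ctrl had 0.920% (0.917 to 0.922%), Mid_Ob had 0.128% (0.127 to 0.129%) and Ob had 0.0545% (0.0541 to 0.0550%). At least 50 counts were reached by 74 members of Ctrl, by 69 of Mid_Ob and by 68 of Ob. The lowest member was Dnah2os, a row antisense to Dnah2, with 49, 7 and 3 counts in Ctrl, Mid_Ob and Ob.

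In Ctrl, 73.8% of the member UMIs (73.7 to 73.9%) fell within the 4 germ cell-like clusters. Cluster 13, whose spermatocyte markers summed to 3155 CPM (counts per 1000000 UMIs) against 388 CPM of spermatid markers, held 50.5% of them, and cluster 7 held 20.4%. Cluster 8 held 6.74%, the testis somatic-like cluster 7.98% and the adipocyte-like cluster 5.05%. In Mid_Ob, cluster 11 held 48.5% of the member UMIs (48.1 to 48.8%) in 2.30% of the library. In Ob, cluster 17 held 33.1% (32.7 to 33.5%) in 1.64% of the library, and the 3 adipocyte-like clusters held 43.4% in 55.4% of it. The members were therefore counted mostly in germ cell-like clusters in Ctrl, whereas the ciliated epithelium-like cluster held the largest share of any class in Mid_Ob, and in Ob a share below that of the adipocyte-like class alone.

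**Figure D1:**
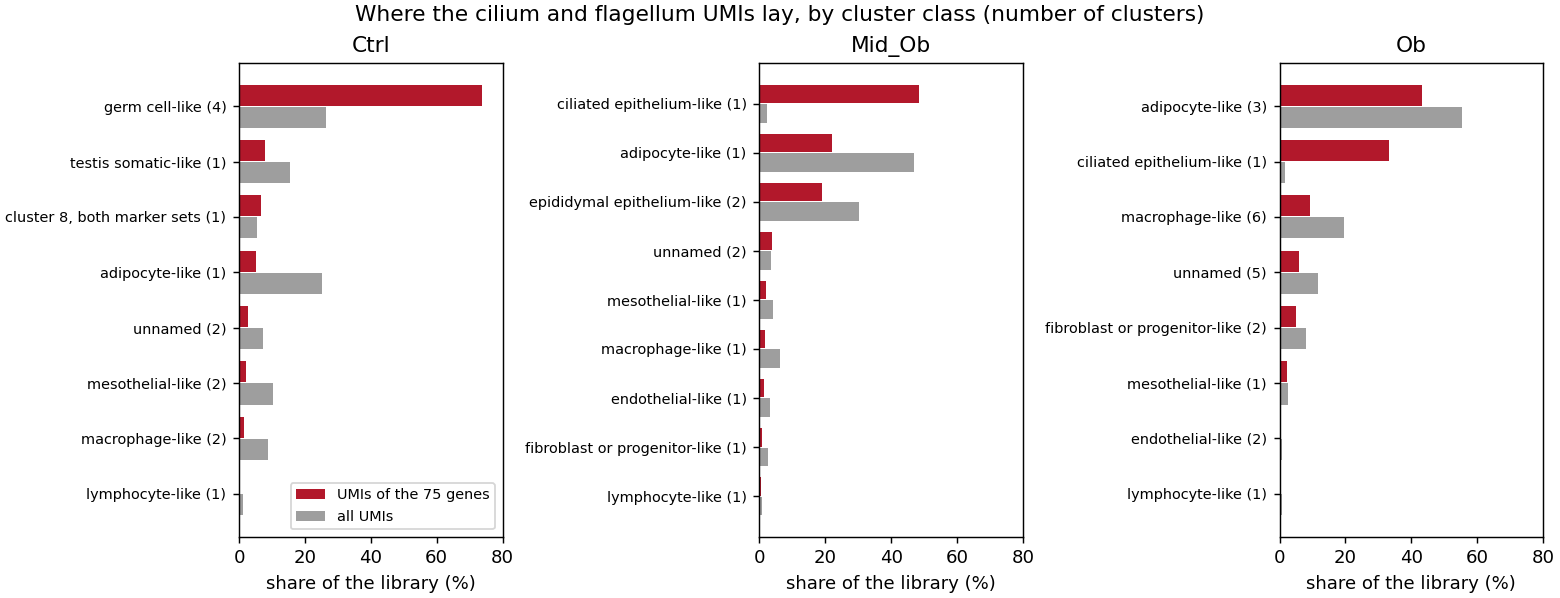
Share of each library's UMIs of the 75 genes (red) and of all UMIs (grey), in percent on the horizontal axis, by cluster class with the number of clusters in brackets, for Ctrl, Mid_Ob and Ob. Red exceeds grey most for the germ cell-like clusters of Ctrl, at 73.8% against 26.3%, and for the ciliated epithelium-like clusters of Mid_Ob, at 48.5% against 2.30%, and of Ob, at 33.1% against 1.64%.

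The germ cell-like clusters differed among themselves. The summed level of the members was 23647 CPM for cluster 7, 10165 CPM for cluster 12, 30817 CPM for cluster 13 and 7454 CPM for cluster 14. Spermatid markers, from the later stage in which the tail is finished, summed to 1311, 3148, 388 and 10511 CPM in the same clusters. The cluster richest in spermatid markers was therefore the poorest in the members. Of 74 members with at least 50 counts in Ctrl, 25 peaked in cluster 13, while cluster 7 held the peak of 19, cluster 12 of 16 and cluster 14 of 3. No share of all genes is given beside the peak counts here and below, which describe the members alone. The 3 of cluster 14 were Tekt5, a tektin of sperm, Cfap97d1, needed for the mouse sperm flagellum, and Cfap97d2.

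Single genes divided among the germ cell-like clusters in differing ways. Spag16, of the central apparatus, gave 84638 of the member UMIs of Ctrl and stood at 6306 CPM in cluster 13 and 4104 CPM in cluster 7, against 565 CPM in cluster 12 and 852 CPM in cluster 14. Dnah8, an outer arm heavy chain of sperm, stood at 2866 CPM in cluster 13 (2829 to 2903 CPM) and between 175 and 464 CPM in the other germ cell-like clusters. Spag6, a central apparatus gene, was highest in cluster 7, at 471 CPM. It stood at 318 CPM in cluster 12, 140 CPM in cluster 14 and 55.8 CPM in cluster 13. Tekt2 and Tekt4 were highest in cluster 12, at 156 and 160 CPM, against 13.5 and 9.96 CPM in cluster 13.

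Of the remaining Ctrl members, 10 were highest in cluster 8 (Cfap44, Cfap47, Cfap73, Dnah5, Dnah9, Dnah11, Dnah12, Drc3, Rsph4a and Tmem212) and Cfap410 in the unnamed cluster 1. The genes that led cluster 8 held Tmem212, Dnah11, Cdhr3 and Sntn, of ciliated cells, beside Crisp1, of the epididymis. It had 10 of 14 epididymal markers and 8 of 10 ciliated epithelium markers at over 2-fold of the rest of its library. In cluster 11 of Mid_Ob 8 of the 10 ciliated markers were over 2-fold and 4 of the 14 epididymal ones. In cluster 17 of Ob the counts were 7 of 10 and 1 of 14. Against the rest of Ctrl, germ cells included, 33 of 74 members were higher in cluster 8 and 16 lower, beside 15.6% and 37.5% of all genes. Since clusters were built from all genes, the members included, a cluster set against the rest of its library is a description.

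**Figure D2:**
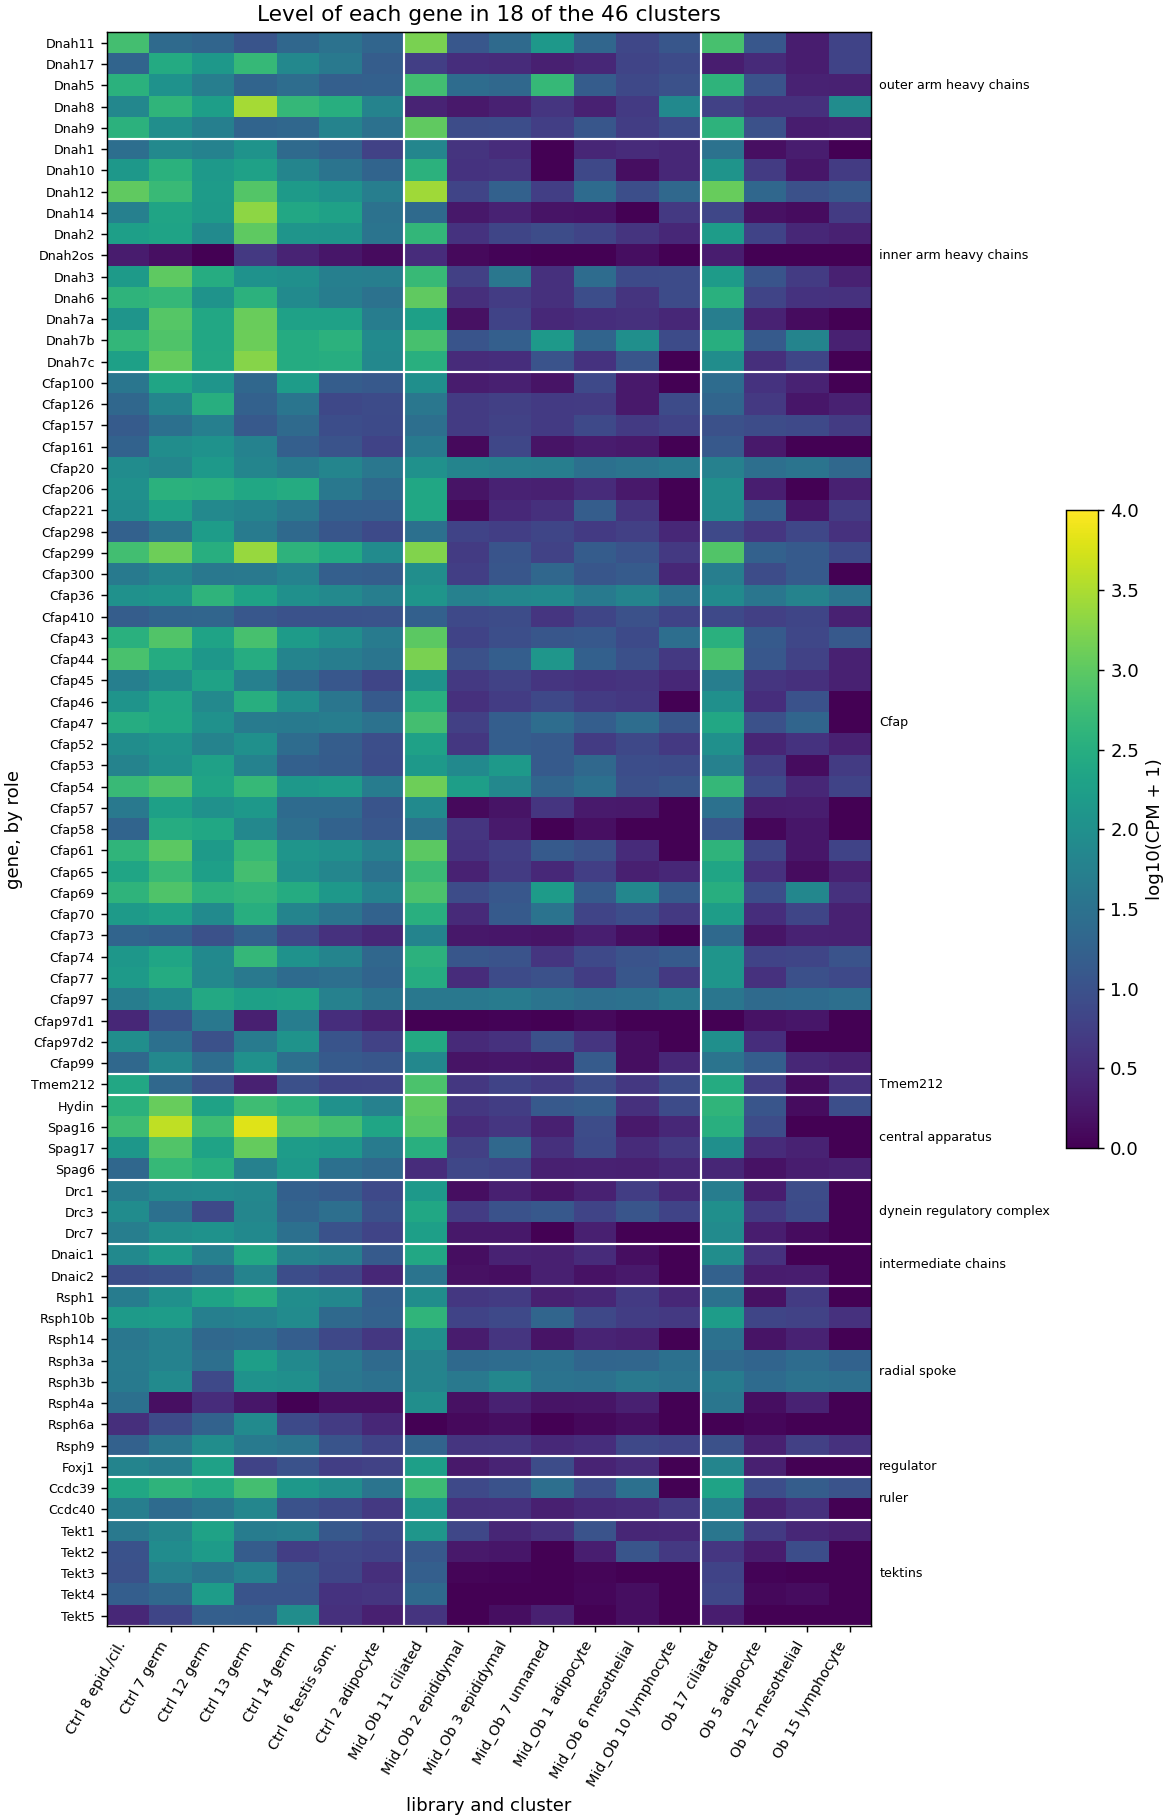
Level of each gene, as log10 of CPM plus 1 (colour), in 18 of the 46 clusters (columns, grouped by library), with genes in rows by role. The germ cell-like columns of Ctrl and the columns of Mid_Ob cluster 11 and Ob cluster 17 are bright over most rows, with Spag16 at 6306 CPM in Ctrl cluster 13 and Dnah12 at 2657 CPM in Mid_Ob cluster 11.

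Within Ctrl, cluster 8 was set against the 4 germ cell-like clusters to compare epithelial and germ cell axoneme genes. The germ cell-like level pools the counts of these 4 clusters, so cluster 13, with 8133193 of their 14187962 UMIs, weighed most. Of 74 members with at least 50 counts in the pair, 12 were over 1.5-fold higher in cluster 8, 43 were over 1.5-fold lower and 19 lay within 1.5-fold. Of all genes counted this way, 32.3% were higher and 40.0% lower. The median log2 ratio of the members was -1.02, beside -0.12 for all genes.

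The outer arm heavy chains divided into 3 higher and 2 lower in cluster 8. On GRCm38 they lie at chr15:28203752-28472052 (Dnah5, plus strand), chr11:65831282-66168551 (Dnah9, minus), chr12:117877982-118199043 (Dnah11, minus), chr17:30624354-30877365 (Dnah8, plus) and chr11:118021723-118130634 (Dnah17, minus), given from the GENCODE annotation by symbol since the build of the files is not stated. Dnah11, a heavy chain of airway and other epithelial cilia, stood at 643 CPM in cluster 8 and 15.4 CPM in germ cell-like clusters, a ratio of 41.8 (36.3 to 48.4). Dnah9 had 374 CPM in cluster 8 and 42.6 CPM in germ cell-like clusters, a ratio of 8.78 (7.94 to 9.71). Dnah5, mutated in primary ciliary dyskinesia, had 359 and 47.7 CPM in cluster 8 and in germ cell-like clusters, a ratio of 7.53 (6.82 to 8.30). The heavy chains of the sperm outer arm ran the other way. Dnah8 had 71.0 CPM in cluster 8 and 1814 CPM in germ cell-like clusters, and was 25.5-fold lower in cluster 8 (22.3 to 29.5). Dnah17 had 18.1 CPM in cluster 8 and 367 CPM in germ cell-like clusters, and was 20.3-fold lower (15.4 to 27.2). The adipocyte-like cluster of Ctrl had 59.9 CPM of Dnah8 and 13.9 CPM of Dnah17. The part of germ cell RNA in the cluster 8 levels of these 2 genes was not tested.

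The other libraries, which the comparison within Ctrl did not use, held no germ cell-like cluster. Only the ciliated side of the split could be read there. Dnah5, Dnah9 and Dnah11 stood at 617, 1038 and 1543 CPM in cluster 11 of Mid_Ob, and at 404, 387 and 696 CPM in cluster 17 of Ob. Dnah8 and Dnah17 had 1.51 and 4.52 CPM in cluster 11 of Mid_Ob, from 2 and 6 counts, and 4.93 and 1.09 CPM in cluster 17 of Ob, from 9 and 2 counts. These levels rest on few molecules, where Dnah11 gave 2046 and 1271 counts in the same clusters of Mid_Ob and Ob.

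**Figure D3:**
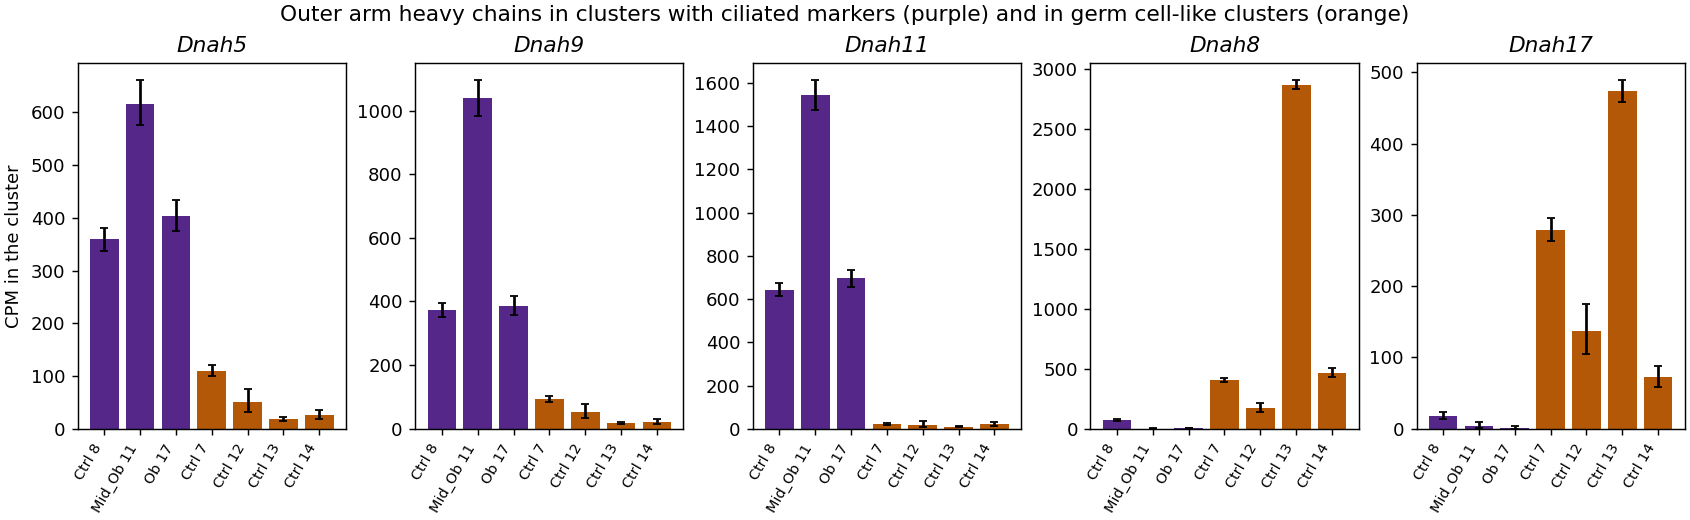
Level of the 5 outer arm heavy chains in CPM (vertical axis from 0, its scale set for each gene) in the clusters with ciliated markers (purple: Ctrl 8, Mid_Ob 11, Ob 17) and in the germ cell-like clusters of Ctrl (orange), with Poisson 95% intervals. Dnah5, Dnah9 and Dnah11 are high in purple bars, up to 1543 CPM for Dnah11, and Dnah8 and Dnah17 in orange bars, up to 2866 CPM for Dnah8.

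Paralogs of other roles also parted. Rsph4a, a spoke head protein of epithelial cilia, had 29.3 CPM in cluster 8 of Ctrl and 0.634 CPM in germ cell-like clusters, a ratio of 46.1 (23.2 to 104). Its sperm paralog Rsph6a had 2.44 CPM in cluster 8, from 7 counts, and 50.2 CPM in germ cell-like clusters. Rsph4a stood at 92.8 CPM in cluster 11 of Mid_Ob and 35.6 CPM in cluster 17 of Ob, whereas Rsph6a had no count in either cluster. Spag6 had 20.9 CPM in cluster 8 and 197 CPM in germ cell-like clusters, with 2.26 CPM in cluster 11 of Mid_Ob and 1.64 CPM in cluster 17 of Ob. Its near copy Spag6l, no member by the rule, had 271 CPM in cluster 8 and 378 CPM in germ cell-like clusters, with 605 CPM in cluster 11 of Mid_Ob and 325 CPM in cluster 17 of Ob. Reads of near-identical genes (Spag6 and Spag6l, Rsph3a and Rsph3b, Dnah7a, Dnah7b and Dnah7c) cannot always be told apart, so their single values are uncertain.

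Inner arm heavy chains mostly leaned to the germ cell-like pool: of 10 with enough counts, 1 was higher in cluster 8, 8 were lower and 1 lay within 1.5-fold. Dnah12 was the one higher in cluster 8, at 1061 CPM against 664 CPM in germ cell-like clusters, and it stood at 2657 CPM in cluster 11 of Mid_Ob. Dnah14 had 54.7 CPM in cluster 8 and 1292 CPM in germ cell-like clusters, and was 23.6-fold lower in cluster 8 (20.2 to 27.8). Dnah7a and Dnah7c were 8.18-fold and 7.73-fold lower in cluster 8, and Dnah7b 2.24-fold lower. Against single germ cell-like clusters the side could differ. Dnah7b had 439 CPM in cluster 8. It had 782 and 1241 CPM in germ cell-like clusters 7 and 13, and 249 and 289 CPM in clusters 12 and 14. Dnah6 lay within 1.5-fold, at 391 CPM in cluster 8 and 362 CPM in germ cell-like clusters.

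All 4 genes grouped here as central apparatus were lower in cluster 8 than in the pooled germ cell-like clusters. The folds were 8.53 for Spag16, 6.95 for Spag17, 9.45 for Spag6 and 1.99 for Hydin. Roles were set by symbol, so Cfap54, Cfap69 and Cfap221, also of the central apparatus, were counted as Cfap genes and lay within 1.5-fold. In cluster 12 alone, Spag16, Spag17, Spag6 and Hydin had 565, 208, 318 and 201 CPM. In cluster 8 they had 581, 130, 20.9 and 363 CPM. In cluster 11 of Mid_Ob, Spag16, Spag17 and Hydin had 876, 336 and 1020 CPM, against 581, 130 and 363 CPM in cluster 8. Spag6 stood lower there, at 2.26 CPM against 20.9 CPM. Of the 5 tektins, 3 were lower in cluster 8 and 2, Tekt1 and Tekt4, lay within 1.5-fold. Both intermediate chains of the outer arm were lower in cluster 8, Dnaic1 by 2.52-fold and Dnaic2 by 4.77-fold. The ruler gene Ccdc39 had 244 CPM in cluster 8 and 505 CPM in germ cell-like clusters, and its partner Ccdc40 had 50.2 and 47.7 CPM in cluster 8 and in germ cell-like clusters. In cluster 11 of Mid_Ob, Ccdc39 had 551 CPM and Ccdc40 had 124 CPM. In the dynein regulatory complex Drc3 was 1.80-fold higher in cluster 8, Drc7 1.60-fold lower, and Drc1 lay within 1.5-fold.

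Foxj1 was 2.53-fold higher in cluster 8 (2.11 to 3.04), at 63.0 CPM, than in germ cell-like clusters, at 24.9 CPM. Germ cells were uneven in it: it stood at 191 CPM for cluster 12, 48.7 CPM for cluster 7, 9.20 CPM for cluster 14 and 5.41 CPM for cluster 13. Tmem212, a membrane protein of ciliated cells, had 245 CPM in cluster 8 and 8.32 CPM in germ cell-like clusters, a ratio of 29.4 (24.2 to 36.1). Of the 33 Cfap genes, 3 were higher in cluster 8 (Cfap44, Cfap47 and Cfap97d2), 17 were lower and 13 lay within 1.5-fold. Cfap44, needed for motility of the sperm tail in human and mouse, had 697 CPM in cluster 8 and 268 CPM in germ cell-like clusters, a ratio of 2.60 (2.46 to 2.75). Cfap58, a sperm tail gene, was 7.82-fold lower in cluster 8, at 18.1 CPM against 142 CPM in germ cell-like clusters.

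**Figure D4:**
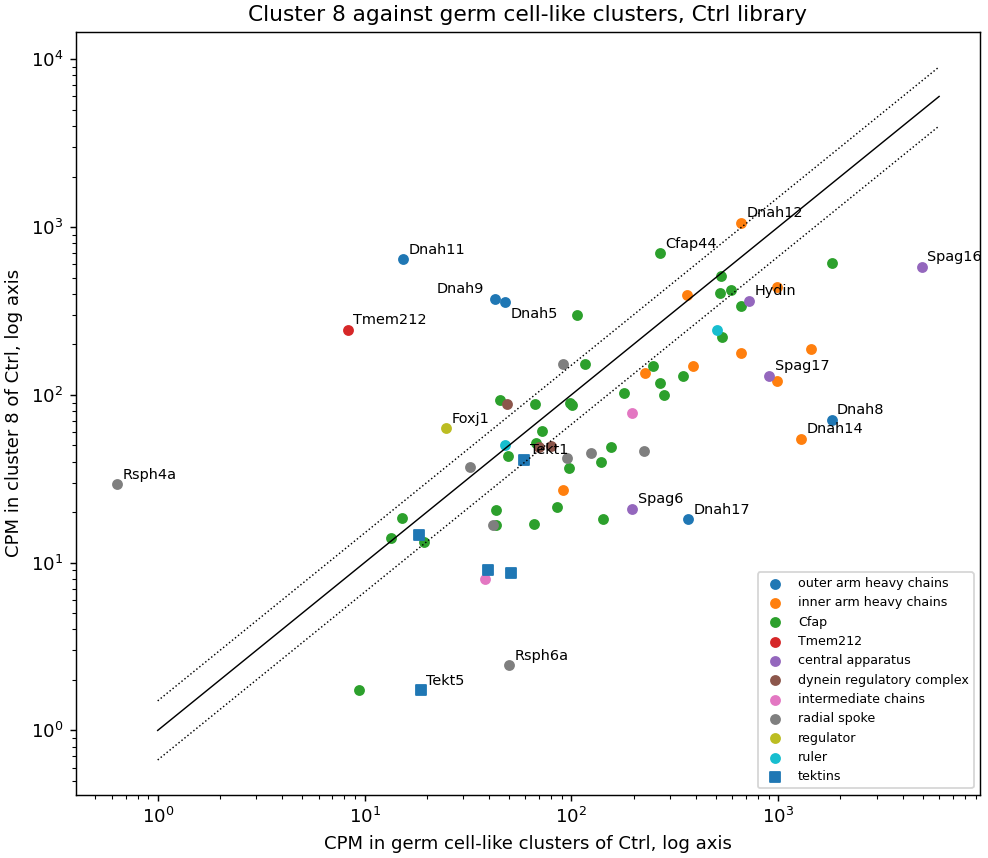
Level of each gene in cluster 8 of Ctrl (vertical) against its level in the germ cell-like clusters of Ctrl (horizontal), both in CPM on log axes, coloured by role, with the line of equality and 1.5-fold lines (dotted). Rsph4a, Dnah11, Tmem212, Dnah9 and Dnah5 lie far above the line, and Dnah8, Dnah14, Dnah17 and Rsph6a far below it, with 12 genes past the upper dotted line and 43 past the lower.

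Promoters were read for the members that RefSeq places on GRCm38.p6, because RFX factors and Foxj1 act on promoters of cilium genes and CRE-binding factors on those of spermatids. Of the 75 members, 62 were matched by symbol. In the 250 bases before the start, on both strands, the X-box bound by RFX factors was found in 10 of the 62 (16.1%) against 402 of 27025 genes (1.49%). The forkhead site GTAAACA was found in 4 (6.45% against 3.54% of genes), and the CRE core ACGTCA in 2 (3.23% against 7.29% of genes). An X-box was found in 8 of 38 matched members lower in cluster 8 than in germ cell-like clusters, in 1 of 9 higher and in 1 of 15 within 1.5-fold. A match is a description of letters and not a site. The 7 windows below are shown because each holds its X-box within the last 35 bases before the start. They are Hydin (chr8:110266917-110266976, plus strand), Cfap44 (chr16:44394739-44394798, plus), Cfap45 (chr1:172521070-172521129, plus), Dnaic1 (chr4:41569734-41569793, plus), Dnaic2 (chr11:114727359-114727418, plus), Cfap99 (chr5:34288605-34288664, plus) and a start of Tekt2 (chr4:126325689-126325748, minus). They run 5′ to 3′ and end at the base before the start, with the X-box in capitals:
Hydin: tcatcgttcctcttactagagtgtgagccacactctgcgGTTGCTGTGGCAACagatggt
Cfap44: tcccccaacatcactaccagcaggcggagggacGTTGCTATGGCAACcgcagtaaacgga
Cfap45: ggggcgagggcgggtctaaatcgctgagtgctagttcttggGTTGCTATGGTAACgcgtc
Dnaic1: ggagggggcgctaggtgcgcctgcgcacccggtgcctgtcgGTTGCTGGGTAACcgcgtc
Dnaic2: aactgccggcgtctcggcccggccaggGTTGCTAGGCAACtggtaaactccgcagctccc
Cfap99: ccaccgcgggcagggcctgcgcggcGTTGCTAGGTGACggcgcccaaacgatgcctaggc
Tekt2: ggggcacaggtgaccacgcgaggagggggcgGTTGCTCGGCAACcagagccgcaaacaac

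The X-box ended 8 bases before the start in Hydin, 14 in Cfap44, 6 in Cfap45, 7 in Dnaic1, 21 in Dnaic2, 23 in Cfap99 and 17 in Tekt2. These 7 genes did not share a level pattern: Cfap44 was higher in cluster 8, Cfap45 lay within 1.5-fold, and Hydin, Dnaic1, Dnaic2, Cfap99 and Tekt2 were lower in cluster 8 than in germ cell-like clusters. The X-box search was added after the other motifs had been looked at.

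In Mid_Ob, cluster 11 carried nearly the whole membership. Of 69 members with at least 50 counts, 66 were over 1.5-fold higher in cluster 11 than in the rest of the library, beside 21.8% of all genes, with a median log2 ratio of 5.41 beside -0.17. Dnah6 had 1069 CPM in cluster 11 and 5.61 CPM in the rest, a ratio of 191 (169 to 216). Drc7 had 181 and 0.976 CPM in cluster 11 and the rest, a ratio of 185, and Spag16 had 876 and 4.77 CPM, a ratio of 183. The regulator Foxj1 stood at 182 CPM in cluster 11 and at no more than 14.9 CPM in any other cluster. Dnah8 was called lower in cluster 11, at 1.51 CPM from 2 counts against 2.41 CPM in the rest, a ratio of 0.625 whose interval ran from 0.0749 to 2.30, and Cfap97 and Spag6 lay within 1.5-fold. Dnah17, called higher, rested on 6 counts, and its ratio of 1.96 had an interval from 0.707 to 4.39.

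In Ob, cluster 17 took that place. Of 68 members, 63 were over 1.5-fold higher in cluster 17 than in the rest of Ob. The others were 1 lower and 4 within 1.5-fold, beside 26.0% of all genes higher and 25.1% lower. The median log2 ratio was 5.35, beside -0.05 for all genes. The lower gene was Dnah17, from 2 counts, at a ratio of 0.522 (0.0629 to 1.91). Spag6 and Cfap298, called higher, had intervals from 0.633 to 9.72 and from 0.979 to 3.38. Drc7 had 84.3 CPM in cluster 17 and 0.574 CPM in the rest, a ratio of 147 (109 to 200). Cfap65, a gene of the sperm tail in human and mouse, had 228 and 1.74 CPM in cluster 17 and the rest, a ratio of 131, and Rsph4a had 35.6 and 0.282 CPM, a ratio of 126. Over the 68 members measured in both, the log2 ratios of cluster 17 over the rest of Ob and of cluster 11 over the rest of Mid_Ob had a Pearson correlation of 0.88 and a Spearman correlation of 0.79, given as a description across genes that share their libraries. Cluster 8 over germ cell-like clusters in Ctrl was also set beside cluster 11 over the rest of Mid_Ob. Over 69 members the Pearson correlation of these log2 ratios was 0.31 and the Spearman correlation 0.24. Their references differ, germ cells against the rest of a library, so these values cannot be ranked against 0.88 and 0.79.

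Levels in cluster 17 of Ob were below those in cluster 11 of Mid_Ob. Of 62 members with at least 50 counts in the pair, none was higher in cluster 17, 59 were lower, and Cfap36, Cfap97 and Rsph3b lay within 1.5-fold, beside 21% of all genes higher and 19.2% lower. The median log2 ratio was -1.38, beside 0.04 for all genes. Tmem212 had 291 CPM in cluster 17 of Ob and 747 CPM in cluster 11 of Mid_Ob, and Foxj1 had 65.7 and 182 CPM in the same clusters. The ciliated markers outside the membership moved with them, at 528 CPM in cluster 17 of Ob and 1437 CPM in cluster 11 of Mid_Ob, so that the ratio of members to these markers was 20.9 in cluster 17 and 18.8 in cluster 11. Macrophage markers summed to 1279 CPM in cluster 17 of Ob and 357 CPM in cluster 11 of Mid_Ob, and adipocyte markers to 2381 and 1464 CPM. The part of other cell types in the lower levels was not tested.

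Against cluster 8 of Ctrl, cluster 11 of Mid_Ob had 58 of 69 members higher, 4 lower and 7 within 1.5-fold, beside 16.7% of all genes higher and 21% lower, with a median log2 ratio of 1.27. The 4 lower genes were Dnah8, Spag6, Dnah17 and Dnah14, each a gene that was lower in cluster 8 than in germ cell-like clusters within Ctrl. Dnah8 had 1.51 CPM in cluster 11 of Mid_Ob and 71.0 CPM in cluster 8 of Ctrl. Spermatid markers summed to 22.6 CPM in cluster 11 of Mid_Ob and 368 CPM in cluster 8 of Ctrl. A list of 13 ciliated epithelium genes outside the membership had 1787 CPM in cluster 11 and 713 CPM in cluster 8. Cluster 8 also carried epididymal markers, and the part of this mixture in the ratios was not tested.

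Members highest in germ cells were also counted in clusters of Ctrl that were not germ cell-like. Spag16 stood at 140 to 499 CPM in the 7 adipocyte-like, mesothelial-like, macrophage-like, lymphocyte-like and unnamed clusters of Ctrl other than cluster 1, and Dnah8 at 38.7 to 152 CPM in the same clusters. The ratio of Spag16 to Dnah8 counts ran from 2.78 in cluster 3 to 3.7 in cluster 2, beside 2.20 in cluster 13 and 10.1 in cluster 7. Droplet data hold free RNA, and its part in these counts was not tested.

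Comparing whole libraries, 68 of 75 members were over 1.5-fold lower in Mid_Ob than in Ctrl, 1 was higher and 6 lay within 1.5-fold, beside 35.5% of all genes lower and 17.3% higher. The median log2 ratio was -2.55, beside -0.16 for all genes, and the summed level was 1283 CPM in Mid_Ob against 9196 CPM in Ctrl. The lowest ratios belonged to genes of germ cells. Dnah14 had 1.30 CPM in Mid_Ob and 396 CPM in Ctrl, and Dnah8 had 2.39 and 571 CPM in Mid_Ob and in Ctrl. Spag16 had 24.8 CPM in Mid_Ob and 1568 CPM in Ctrl. Of the 10 genes highest in cluster 8 of Ctrl, 6 were lower in Mid_Ob: Dnah12 had 79.6 CPM in Mid_Ob and 278 CPM in Ctrl, Cfap44 had 51.3 and 132 CPM, Cfap47 27.4 and 67.3 CPM, Drc3 11.3 and 26.7 CPM, Cfap73 2.34 and 6.41 CPM, and Dnah9 32.3 and 53.2 CPM. The other 4, Rsph4a among them, lay within 1.5-fold: Dnah11 had 58.2 CPM in Mid_Ob and 51.4 CPM in Ctrl, Dnah5 had 42.0 and 40.5 CPM, and Tmem212 had 23.0 and 18.9 CPM.

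The higher gene was Cfap53, a protein of the axonemal doublet lumen that is needed for left-right asymmetry, with 49.8 CPM in Mid_Ob and 28.5 CPM in Ctrl, a ratio of 1.74. Its UMIs in Mid_Ob lay largely outside cluster 11. The 2 epididymal epithelium-like clusters of Mid_Ob had 114 CPM of Cfap53, 6.37 times the level of the fat and other clusters (5.84 to 6.96), and 117 CPM of Cfap54, a central apparatus gene, 5.05 times that level (4.67 to 5.47). Cfap53 was highest of these in cluster 3, at 141 CPM, close to the 147 CPM of cluster 11, and Cfap54 in cluster 2, at 174 CPM.

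Leaving out the germ cell-like, testis somatic-like and epididymal epithelium-like clusters changed this comparison most. Of 74 members then counted, 12 were higher in Mid_Ob, 29 were lower and 33 lay within 1.5-fold, with a median log2 ratio of -0.24, beside 15.6% of all genes higher and 22.9% lower. This setting drops cluster 8 of Ctrl and keeps cluster 11 of Mid_Ob. Under it 7 members called lower with all clusters were called higher: Dnah12, Cfap44, Cfap54, Cfap73, Cfap97d2, Dnah9 and Foxj1. Dnah12 then had 109 CPM in Mid_Ob and 56.8 CPM in Ctrl. With cluster 8 kept, also chosen after seeing the data, 1 of 74 members was higher and 46 were lower, with a median of -0.78, beside 13.5% and 23.7% of all genes, and no member changed sides. With the ciliated epithelium-like clusters left out as well, an alternative chosen after seeing the data, 3 of 73 members were higher and 58 lower, with a median of -1.59, beside 14.6% and 24.0% of all genes.

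Ob had lower levels again. Of 72 members with at least 50 counts in the pair, 56 were over 1.5-fold lower in Ob than in Mid_Ob, 2 were higher and 14 lay within 1.5-fold, beside 27.3% of all genes lower and 17.5% higher. The median log2 ratio was -1.35, beside -0.09 for all genes. Cfap53 had 4.02 CPM in Ob and 49.8 CPM in Mid_Ob, and Cfap54 had 11.6 CPM in Ob and 80.7 CPM in Mid_Ob, the lowest ratios of all. The epididymal epithelium-like clusters in which these genes stood high in Mid_Ob had no cluster of that name in Ob. The 2 genes higher in Ob were Cfap97d1, with 47 counts in Ob and 9 in Mid_Ob, and Dnah8, with 4.10 CPM in Ob and 2.39 CPM in Mid_Ob. Without cluster 4 of Ob, an adipocyte-like cluster led by testis genes among others and left out after seeing the data, 0 of 70 members were higher than in Mid_Ob and 56 were lower, beside 18.3% and 28.2% of all genes. With testis and epididymis clusters left out, 56 of 71 members were lower in Ob than in Mid_Ob and 1 was higher, beside 24.8% and 15% of all genes. With the ciliated clusters left out as well, 42 of 69 were lower and 2 higher, beside 23.4% and 15.4% of all genes. Against Ctrl, all 75 members were over 1.5-fold lower in Ob, beside 43.5% of all genes lower, with a median log2 ratio of -3.88 beside -0.35; the Ctrl library is the same as in the comparison with Mid_Ob. With testis and epididymis clusters left out, 62 of 73 were lower in Ob than in Ctrl, none was higher and 11 lay within 1.5-fold, with a median of -1.80, beside 31.9% of all genes lower and 17% higher.

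**Figure D5:**
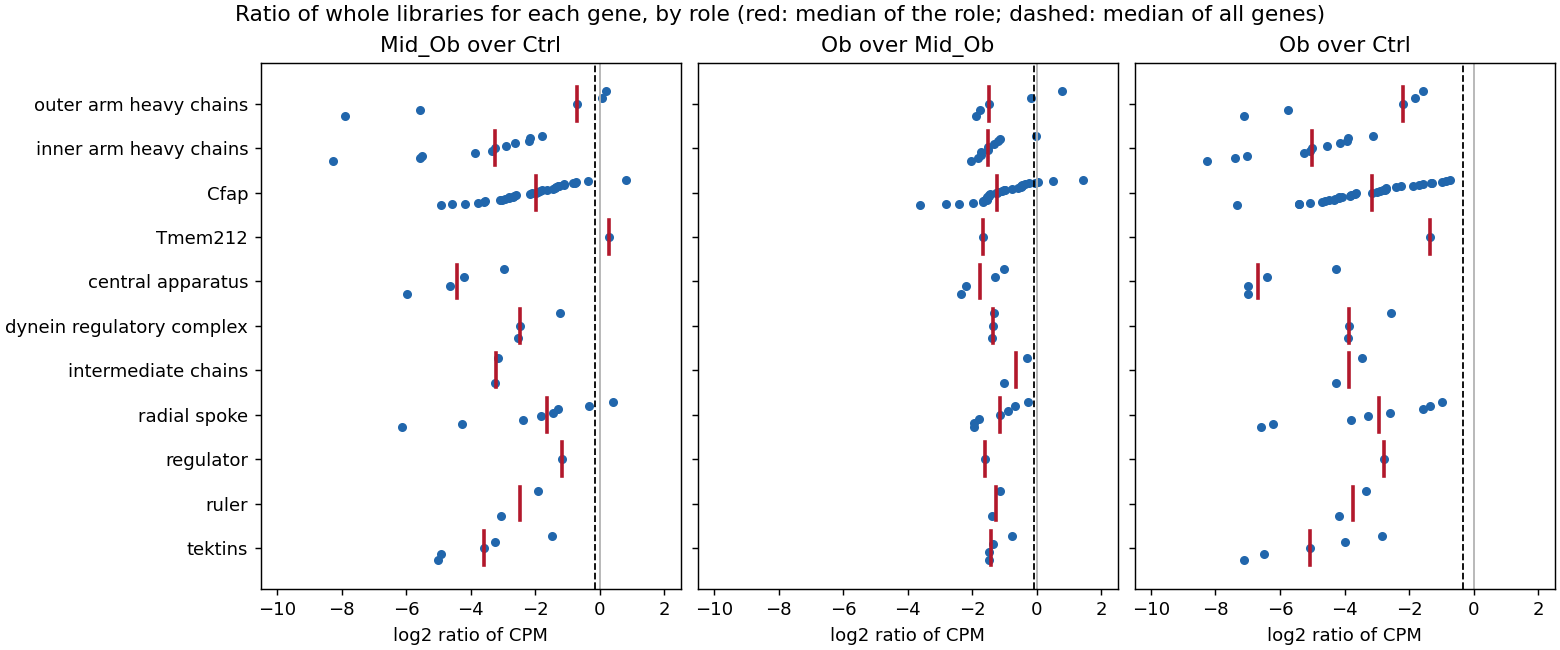
Log2 ratio of CPM of whole libraries for each gene (points), by role, for Mid_Ob over Ctrl, Ob over Mid_Ob and Ob over Ctrl, with the median of the role in red and the median of all genes dashed. The genes grouped as central apparatus (Hydin, Spag6, Spag16 and Spag17) have the lowest role median in Mid_Ob over Ctrl, at -4.42. Outer arm heavy chains spread from -7.90 for Dnah8 to 0.18 for Dnah11.

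By role, as set by symbol, the median log2 ratio of Mid_Ob over Ctrl was -4.42 for the 4 genes grouped as central apparatus. It was -3.59 for the 5 tektins, -3.24 for the 11 inner arm heavy chain rows and -3.21 for the 2 intermediate chains. The 33 Cfap genes, Cfap54, Cfap69 and Cfap221 among them, had -1.97. The median was -1.64 for the 8 radial spoke genes and -0.72 for the 5 outer arm heavy chains. Among radial spoke genes Rsph4a had 2.95 CPM in Mid_Ob and 2.22 CPM in Ctrl, and Rsph6a had 0.225 and 15.6 CPM in Mid_Ob and in Ctrl. The ratios of Mid_Ob over Ctrl for Cfap20, Cfap36, Cfap97, Rsph3a and Rsph3b lay between 0.405 for Rsph3a and 0.797 for Rsph3b.

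Within the adipocyte-like clusters alone, 51 of 67 members were lower in Mid_Ob than in Ctrl and 1 was higher, beside 20.2% and 15.3% of all genes, with a median log2 ratio of -1.55. Dnah14 had 0.555 CPM in adipocyte-like clusters of Mid_Ob and 30.8 CPM in those of Ctrl, and Spag16 had 7.36 and 222 CPM. The part of germ cell RNA in these levels of Ctrl was not tested. In adipocyte-like clusters of Ob, 31 of 67 members were lower than in those of Mid_Ob, 4 were higher and 32 lay within 1.5-fold, beside 19% and 15.3% of all genes lower and higher. The 4 higher were Dnah8, Dnah14, Dnaic2 and Spag16. The ratio of Dnaic2, 1.53 on 56 counts in Ob and 16 in Mid_Ob, had an interval from 0.865 to 2.86. Cluster 4 of Ob, led by genes that include Spata16 and Adam2 of the testis, held 132 of 230 adipocyte-like counts of Dnah8, 76 of 95 of Dnah14, 14 of 56 of Dnaic2 and 408 of 691 of Spag16. Without it, 2 of 66 members were higher (Dnah8 and Dnaic2) and 32 lower, beside 16.9% and 18.7% of all genes. Spag16 then lay within 1.5-fold, and Dnah14, with 19 counts in Ob and 15 in Mid_Ob, had too few counts to be called. The part of germ cell RNA in cluster 4 was not tested. Against adipocyte-like clusters of Ctrl, 62 of 70 members were lower in Ob and 1 was higher, beside 27.6% and 18.8% of all genes, with a median log2 ratio of -2.30. Without cluster 4 of Ob, 60 of 69 were lower and 0 higher, beside 26.5% and 20.3% of all genes.

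Some members were higher in 1 class of cluster than in others outside ciliated and germ cells, described here after their values were seen. Each class was set against the other clusters of its library. The germ cell-like, testis somatic-like and ciliated clusters and cluster 8 were left out. Cluster 1 of Ctrl, unnamed but led by genes that include the spermatid marker Tssk6, was kept among the others. Its part in the ratios of Ctrl was not tested. Dnah8 stood at 78.8 CPM in the lymphocyte-like cluster of Mid_Ob, from 44 counts, and 1.65 CPM elsewhere, a ratio of 47.8 (32.6 to 69.1). In Ob it stood at 88.5 CPM in the lymphocyte-like cluster, from 66 counts, and 3.51 CPM elsewhere, a ratio of 25.2 (19.1 to 32.8). The same cluster class of Ctrl had 152 CPM, beside 75.4 CPM elsewhere, in the library with germ cell-like clusters. The unnamed cluster 1 of Ctrl stood higher, at 388 CPM of Dnah8. No cluster of Mid_Ob or Ob was named germ cell-like by its markers. The unnamed cluster 5 of Mid_Ob, led by hemoglobin and mitochondrial genes among others, had the spermatid marker Prm1 among its leading genes. It had 6.40 CPM of Dnah8, from 3 counts, and its part in the ratio of Mid_Ob was not tested. Cluster 4 of Ob, adipocyte-like with all 10 adipocyte markers over 2-fold, was led by genes that include Spata16 and Adam2, known from the testis, and held 132 of the 458 Dnah8 counts of Ob. Spermatocyte markers summed to 229.9 CPM there, the highest of any Ob cluster, and spermatid markers to 14.5 CPM.

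Tekt2 was higher in mesothelial-like clusters than elsewhere, at 19.1 CPM against 6.35 CPM in Ctrl, with ratios of 9.09 in Mid_Ob (5.42 to 14.8), at 10.3 CPM, and 9.78 in Ob (5.83 to 15.8), at 7.95 CPM. Cfap69, a gene of the sperm tail and the central apparatus, stood at 110, 71.0 and 69.4 CPM in mesothelial-like clusters of Ctrl, Mid_Ob and Ob, with ratios of 1.68, 4.70 and 12.8. Dnah7b stood at 150, 96.3 and 62.9 CPM in the same clusters, with ratios of 1.65, 4.74 and 5.94. In Ctrl the unnamed cluster 1 stood higher than the mesothelial-like class for all 3 genes, at 266.9 CPM for Dnah7b, 239 CPM for Cfap69 and 23.2 CPM for Tekt2. In Mid_Ob the unnamed cluster 7 did so for Dnah7b and Cfap69.

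Cfap221, a central apparatus gene, was higher in adipocyte-like clusters than elsewhere, by 1.62-fold in Ctrl, 8.30-fold in Mid_Ob and 12.1-fold in Ob, at levels of 15.3, 13.9 and 18.6 CPM. Cfap99 followed with ratios of 1.70, 9.06 and 4.06, at 10.8, 13.3 and 17.8 CPM. Tekt1 stood at 6.90, 9.47 and 4.48 CPM in adipocyte-like clusters of Ctrl, Mid_Ob and Ob, with ratios of 0.675, 3.51 and 5.97. In all 3 genes the level elsewhere was highest in Ctrl, at 9.42 CPM for Cfap221, 6.34 CPM for Cfap99 and 10.2 CPM for Tekt1. The unnamed cluster 1 of Ctrl stood above its adipocyte-like cluster for all 3, at 35.2, 22.3 and 36.9 CPM. In Ob another cluster stood at 4.90 CPM of Tekt1, above the adipocyte-like class.

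In Mid_Ob, the unnamed cluster 7, led by Tinag, Kl and Slc9a3, had 479 CPM of Dnah5 (446 to 515 CPM), near the 617 CPM of cluster 11, and 133 CPM of Dnah11. It also had 154 CPM of Cfap69, 141 CPM of Dnah7b and 126 CPM of Cfap44, but 7.65 CPM of Foxj1 and 3.82 CPM of Tmem212, against 182 and 747 CPM in cluster 11. None of its 10 ciliated markers was over 2-fold. The endothelial-like cluster of Mid_Ob had 106 CPM of Dnah11, 5.18 times the level elsewhere (4.43 to 6.03), and 3.79 CPM of Dnah5. The 2 endothelial-like clusters of Ob together had 3 counts of Dnah11.

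Genes of related lists outside the membership were counted in the same way, and the lists were set with earlier results known. Counts for Mid_Ob over Ctrl are given here for the sperm, dynein, intraflagellar transport and BBSome lists. Those of the ciliated epithelium genes and of the regulators of multiciliated cells are not given, so this paragraph does not describe all related genes. All genes of this comparison were lower in 35.5% and higher in 17.3%, with a median log2 ratio of -0.16. Of 16 genes of the sperm tail sheath and dense fibres, 16 were lower in Mid_Ob than in Ctrl, with a median log2 ratio of -6.40. Ldhc, the lactate dehydrogenase of sperm, had 0.694 CPM in Mid_Ob and 104 CPM in Ctrl. Of 10 sperm ion channel genes 9 were lower, with a median of -4.91, and Catsperb, a subunit of the CatSper calcium channel, had 0.815 CPM in Mid_Ob and 328 CPM in Ctrl. Of 10 dynein assembly factors all 10 were lower, with a median of -2.70, and of 10 other dynein subunits and docking genes 9 were lower, with a median of -1.97. Genes of intraflagellar transport, which immotile cilia use too, had 19 of 22 lower with a median of -1.13, and those of the BBSome 6 of 8 with a median of -0.90.

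In cluster 11 of Mid_Ob over the rest, 10 of 10 other dynein subunits, 8 of 8 assembly factors, 11 of 12 ciliated epithelium genes, 19 of 22 intraflagellar transport genes and 8 of 8 BBSome genes were higher, beside 21.8% of all genes. Of 5 sheath and dense fibre genes with enough counts, 2 were higher, 2 lower and 1 within 1.5-fold. Akap4, the main sheath protein of the sperm tail, had no count in cluster 11 of Mid_Ob or cluster 17 of Ob, and 35.0 CPM in germ cell-like clusters of Ctrl. Sntn, of the ciliary tip, had 254 CPM in cluster 11 of Mid_Ob and 87.6 CPM in cluster 17 of Ob, and 71.4 CPM in cluster 8 of Ctrl against 1.27 CPM in germ cell-like clusters.

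The regulators of multiciliated cells differed among themselves, and those named, like Akap4 and Sntn, were chosen after their values were seen. Gmnc, which starts the program, had 99.5 CPM in cluster 11 of Mid_Ob and 1.33 CPM in the rest, and Trp73 had 86.7 and 1.06 CPM. In Ob, Gmnc had 44.3 CPM in cluster 17 and 0.556 CPM in the rest. Myb, a transcription factor used by multiciliated cells and by blood progenitors, had 112 CPM in cluster 11 of Mid_Ob and 4.56 CPM in the rest. Mcidas had no count in cluster 11 of Mid_Ob or in cluster 17 of Ob. Ccno, a cyclin-like gene of centriole amplification, had 6.03 CPM in cluster 11 of Mid_Ob and 13.4 CPM in the rest, and was 15.9-fold higher in Mid_Ob than in Ctrl as whole libraries. Rfx3, an X-box-binding factor, had 838 CPM in cluster 11 of Mid_Ob and 100 CPM in the rest, and 498 CPM in cluster 8 of Ctrl against 420 CPM in germ cell-like clusters.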

How the data were processed

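Nuclei of frozen epididymal fat were sequenced in 1 library per stage, each from 8 pooled mice. The authors ran Cell Ranger; its version, the build and the gene annotation were not given in the sources used here. The deposited tables hold, per gene and cluster, a mean count, a signal that the authors scaled for depth, besides a log2 fold change and an adjusted p-value of each cluster against the others, which were not used. Whole UMIs were recovered from the deposited signal (100% of values within 0.001 of a whole count) and summed into clusters, classes and libraries. Numbers of nuclei were not derivable, and doublets could not be treated here. The study names DoubletFinder and filters on nuclei in its methods, but whether the deposited tables were made before or after them is not stated.

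CPM is counts per 1000000 UMIs. A gene was called past 1.5-fold where both sides together had 50 counts or more, and 3 counts stood in place of 0. Intervals are exact: Poisson for levels, Clopper-Pearson for shares and ratios. With 1 library per group no test was run, on the recovered counts either. Clusters were classed from fixed markers. Promoters came from RefSeq on GRCm38.p6. The rule for named genes took Foxj1, Hydin, Tmem212, Spag6, Spag16, Spag17, Ccdc39 and Ccdc40; the 4 members of each role with most UMIs; the 6 highest and 6 lowest ratios of each comparison (10 and 10 for cluster 8 over germ cell-like clusters); the 5 members of Mid_Ob and of Ob with the largest ratio of their highest cluster over the rest; and the 3 genes of each other list with most UMIs. Other genes, and all patterns in single cell classes, were named after their values were seen. The members and lists were chosen with earlier results of these data known. Steps were tested on simulated counts. Python 3.11.15, numpy 2.4.6, pandas 2.3.3, scipy 1.17.1 and matplotlib 3.10.9 were used. Alternatives covered the count minimum, the fold, the scaling, the clusters and genes left out, and equal weight for clusters.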

Additional observations from a re-analysis of the deposited data

How the results depend on the processing

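No median or summed ratio changed direction, but single members did: without germ cell-like, testis somatic-like and epididymal clusters, cluster 8 of Ctrl among them, 7 ratios of Mid_Ob over Ctrl turned to 1.92 for Dnah12, 2.14 for Cfap44, 1.56 for Cfap54, 1.61 for Cfap73, 2.33 for Cfap97d2, 1.77 for Dnah9 and 1.57 for Foxj1, and with equal weight Dnah9 turned to 1.79. With cluster 8 kept, chosen after seeing the data, no member turned, and the medians were -0.78 for Mid_Ob over Ctrl and -2.44 for Ob over Ctrl. Without cluster 4 of Ob, also chosen then, 0 members were higher in Ob than in Mid_Ob. Without germ cell-like, testis somatic-like and epididymal epithelium-like clusters, Mid_Ob over Ctrl had 12 members higher and 29 lower, a median log2 ratio of -0.24 and a summed ratio of 0.749, beside 0.140 with all clusters. Ob over Mid_Ob then had 1 higher, a median of -1.67 and a summed ratio of 0.366, beside 0.425, and Ob over Ctrl a median of -1.80 and a summed ratio of 0.274, beside 0.0593. With ciliated clusters also left out, chosen after seeing the data, 3 were higher in Mid_Ob, the medians were -1.59, -0.84 and -2.54 and the summed ratios 0.311, 0.600 and 0.186 for Mid_Ob over Ctrl, Ob over Mid_Ob and Ob over Ctrl. With equal weight for each cluster, 5 were higher in Mid_Ob over Ctrl and 1 in Ob over Mid_Ob, the medians were -1.20, -2.06 and -3.10, and the summed ratios 0.399, 0.271 and 0.108. Median-ratio scaling gave summed ratios of 0.156, 0.453 and 0.0756, and leaving out unnamed clusters 0.132, 0.455 and 0.0601, with 1 member higher in Ob over Mid_Ob. At 2-fold, 0 were higher in Mid_Ob over Ctrl and 1 in Ob over Mid_Ob, and a minimum of 200 counts gave 1 in Ob over Mid_Ob. The germ cell-like share was 69.8% without the 5 genes with most UMIs and 66.1% with equal weight, and the share of cluster 8 was 9.31% and 10.7%. The cause of these shifts was not tested, beyond the clusters each setting drops. No paired analysis was possible because each group held 1 library. No replicate could be left out, and the pooled libraries give no spread between animals.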
